A study of Rattus norvegicus with 12 samples.

Results

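The genes described here are the enzymes of the urea cycle and the enzymes that release or capture ammonia in the liver: Cps1, Otc, Ass1, Asl, Arg1, Nags, Glud1, Gls2, Glul and Oat. A transcript was taken as belonging to a gene where the deposited gene name was equal to its symbol, and the transcript with the highest mean level over the 12 livers stood for the gene. Of the 10 genes sought, 8 were found, in 10 of 34391 listed transcripts. Asl and Glul had no transcript under those names, and Glul is not analysed here. The libraries came from the livers of 12 female rats of the inbred alcohol-preferring strain iP10a, with 1 animal per library. The 6 EtOH animals had ad libitum access to bottles of 10, 20 and 30% ethanol (v/v) as well as to food and water during 23 weeks, and the 6 control animals had food and water. All were 38 weeks old at collection except EtOH animal 6, at 39 weeks. Because 1 inbred line and 1 sex were used, the values describe these animals and no other rats. The samples were whole liver, in which fewer cells of a type and less RNA per cell cannot be told apart.

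The urea cycle turns ammonia into urea for excretion. Carbamoyl phosphate synthetase 1 (Cps1), switched on by the N-acetylglutamate that Nags makes, and ornithine transcarbamylase (Otc) work in the mitochondrion, and argininosuccinate synthetase (Ass1), argininosuccinate lyase (Asl) and arginase (Arg1) complete the cycle in the cytosol. Glutamate dehydrogenase (Glud1) and liver glutaminase (Gls2) release ammonia, ornithine aminotransferase (Oat) takes ornithine out of the cycle toward glutamate, and glutamine synthetase (Glul) captures in the cells around the central vein the ammonia that the periportal cells leave.

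The start regions of the 3 genes with calls, Oat, Cps1 and Gls2, are printed so that they can be compared: 250 bases before to 50 after the gene start, 5′ to 3′, from RefSeq on the GRCr8 build, which need not be the build of the authors' table. Capitals mark matches, on either strand, to TGACG, the core of a cAMP response element, or to CCAAT.
Oat, chr1:196797705-196798004, minus strand: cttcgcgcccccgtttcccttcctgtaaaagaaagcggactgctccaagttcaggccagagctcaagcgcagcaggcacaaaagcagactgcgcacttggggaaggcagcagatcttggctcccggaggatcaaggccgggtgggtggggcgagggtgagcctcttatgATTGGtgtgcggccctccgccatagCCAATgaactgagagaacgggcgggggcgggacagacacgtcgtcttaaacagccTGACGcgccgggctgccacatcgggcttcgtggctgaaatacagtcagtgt
Cps1, chr9:76063613-76063912, plus strand: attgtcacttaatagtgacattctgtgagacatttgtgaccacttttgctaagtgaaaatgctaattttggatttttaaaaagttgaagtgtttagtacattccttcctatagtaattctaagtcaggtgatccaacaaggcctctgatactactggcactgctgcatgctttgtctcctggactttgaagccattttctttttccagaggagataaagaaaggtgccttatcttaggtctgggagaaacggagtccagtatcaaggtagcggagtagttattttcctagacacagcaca
Gls2, chr7:1201629-1201928, plus strand: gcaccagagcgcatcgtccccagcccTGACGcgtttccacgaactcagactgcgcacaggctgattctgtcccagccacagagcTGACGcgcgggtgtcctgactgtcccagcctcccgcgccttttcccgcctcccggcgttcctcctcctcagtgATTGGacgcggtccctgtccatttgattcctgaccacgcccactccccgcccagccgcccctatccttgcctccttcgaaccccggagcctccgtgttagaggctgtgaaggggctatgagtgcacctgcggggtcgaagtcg
The Oat window held TGACG 1 time, at base -1 from the gene start, and CCAAT 2 times. The Gls2 window held TGACG 2 times, at bases -224 and -166, and CCAAT 1 time, and a second Gls2 window in the table held none of the motifs searched. The Cps1 window held no capitals, which says only that these letters are not in it. Of 33469 RefSeq windows of this length, 21.2% held TGACG and 37.5% held CCAAT. The full site TGACGTCA (1.83% of windows), which contains TGACG, the letters TTNNGCAA of C/EBP-type sites (10.6%), AGGTCA of nuclear receptor sites (16.2%), TGTTCT of glucocorticoid receptor sites (20.7%) and TATAAA (14.2%) were also searched, and none was in the 3 windows printed. Windows were matched for all but Arg1. Among the windows not printed, that of Nags held TGACG and AGGTCA 1 time each, that of Ass1 held TATAAA 1 time, those of Glul held TGACG 1 time and CCAAT 1 time in the first and CCAAT 3 times in the second, and those of Otc, Asl and Glud1 held none.

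Levels are given in RPKM, reads scaled to the length of the transcript and to the mapped reads of the library, a measure per length that can be compared between genes. Reads recovered from the RPKM values numbered 2610238 to 4318141 per control liver and 3945593 to 6030028 per EtOH liver, so the EtOH livers tended to be deeper. EtOH and control livers were compared with limma on quantile-normalized log2(RPKM + 0.5) over the 21718 transcripts above 0 in at least 1 liver. A transcript was called where its Benjamini-Hochberg adjusted p over all of them was below 0.05. Before normalization, the transcripts averaging an RPKM of 1 or more had a median EtOH minus control difference of -0.08 on the log2 scale. The markers of hepatocytes were the most abundant of the cell type lists. Of the 5 tested, Alb and Tf held the same rank in every liver, so that quantile normalization made their values equal and limma could not call them. Of the other 3, 0 were called by limma, with 0 at an unadjusted p below 0.05 and 0 by limma voom on the recovered reads. Serpina1, an antiprotease and the one with the smallest p, went from 4166 ± 423 to 4589.9 ± 283 RPKM (SD, n = 6 each; adjusted p = 0.647).

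Of the 8 genes, 3 were higher in EtOH livers by limma (Oat, Cps1 and Gls2) and 0 were lower. Of all transcripts tested, 1.13% were called higher and 1.29% lower, and of the 2215 with a mean RPKM of at least 20, the range in which the 8 genes lie, 5.06% were called higher. At an unadjusted p below 0.05, 5 of the 8 were higher and 0 lower, against 8.07% and 7.42% of all transcripts and, for higher, 19.8% of those at an RPKM of 20 or more. Limma voom called 3 higher and 0 lower, against 1.13% and 1.28% of all transcripts. The median log2 difference of the 8 genes was 0.37, against 0.0002 over all transcripts and 0.18 over the 29 other genes of ammonia, ornithine and amino acid handling that were tested. The 3 calls were not equally firm: Oat was called with any single liver left out, Cps1 was not in 4 of those 12 fits and Gls2 was not in 9. Without EtOH animal 2, EtOH animal 3, EtOH animal 5 or control animal 2, only Oat was called, and without EtOH animal 1, 4 genes were called, Ass1 being added. In the values as deposited, the 6 EtOH livers lay above the 6 control livers for 3 of the 8 genes (Oat, Cps1 and Otc), as they did for 0.677% of all transcripts, and lay below them for none of the 8, as they did for 2.43%. These shares were not counted for transcripts of like level, which were called higher more often.

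**Figure D1:**
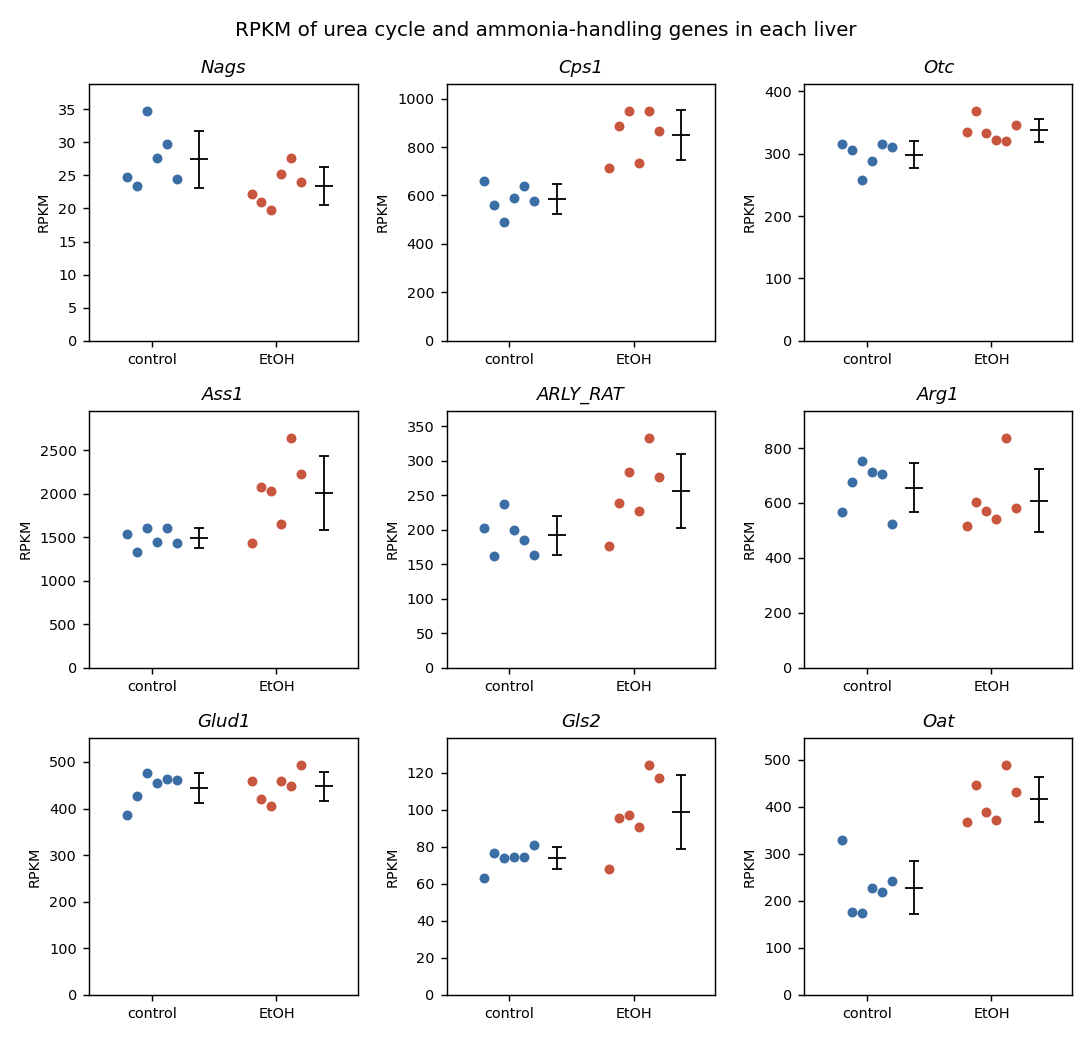
RPKM (vertical axes, from 0) of the 8 genes and of ARLY_RAT in each of the 6 control (blue) and 6 EtOH (red) livers, ordered by animal number, with the mean and SD of each group in black. The groups are apart for Cps1 (control highest 661, EtOH lowest 714), Otc (315 and 320.8) and Oat (329.7 and 367), and overlap for the other genes.

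The transcripts of the mitochondrial entry to the cycle were higher or near the control level. Cps1 (chromosome 9, 65907072 to 66017957 as the authors' table lists it, on a genome build not given in the sources used here) ranged from 488 to 661 RPKM in control livers, with a median of 583. In EtOH livers it ranged from 714 to 948, with a median of 877. The groups did not overlap. EtOH animals 1 and 4 were the lowest of their group, at 714 and 735. Cps1 rose from 586 ± 61.3 to 849.7 ± 103 RPKM (SD, n = 6 each), with a log2 fold change of 0.58 (SE 0.11, limma adjusted p = 0.0224). A second Cps1 transcript held 3 reads in control livers and 4 in EtOH livers, next to 59963 and 121010 of the first.

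Nags, which makes the activator of Cps1, was the least abundant of the 8 genes. It ranged from 23.3 to 34.7 RPKM in control livers, with a median of 26.2, and from 19.8 to 27.6 in EtOH livers, with a median of 23.2, on 152 to 313 reads per liver. The ranges overlapped, although 3 EtOH livers lay below the lowest control. The means were 27.5 ± 4.28 and 23.3 ± 2.87 RPKM, and the log2 fold change was -0.07 (95% interval -0.26 to 0.13, limma adjusted p = 0.738).

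Otc (chromosome X, 24609141 to 24685341) ranged from 258 to 315 RPKM in control livers, with a median of 308, and from 320.8 to 368 in EtOH livers, with a median of 334. The groups did not overlap, but the gap between them was narrow, at 315.4 against 320.8. The means were 299 ± 22.3 and 337 ± 17.8 RPKM, and with a log2 fold change of 0.29 (SE 0.09) the gene was not called (adjusted p = 0.122). The 95% interval of its log2 fold change ran from 0.09 to 0.49. A second Otc transcript held 19 reads in all control livers together and 75 in EtOH livers, at 0.77 ± 0.59 and 2.13 ± 1.23 RPKM, and was not called (adjusted p = 0.266).

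Of the cytosolic enzymes, Ass1, which joins citrulline and aspartate, was the most abundant of the 8 genes and ranked 40th among all transcripts by mean RPKM. It ranged from 1326 to 1609 RPKM in control livers, with a median of 1489, and from 1434 to 2634 in EtOH livers, with a median of 2050.3. The SD of the EtOH group, 424, was wider than that of the controls, 111. In the EtOH group, 5 livers lay above the highest control, while EtOH animal 1 lay inside the control range. The log2 fold change of Ass1 (chromosome 3, 10580778 to 10622332) was 0.46 (SE 0.12), and it was not called (adjusted p = 0.0608). It was called without EtOH animal 1 (adjusted p = 0.0177) and where transcripts with a mean RPKM under 1 were left out (adjusted p = 0.0243).

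Argininosuccinate lyase follows Ass1 in the cycle. The symbol Asl was not matched, but a transcript named ARLY_RAT, the protein database entry name of the rat enzyme, lies on chromosome 12 from 27702882 to 27720223, between Crcp and BGLR_RAT, as Asl lies between Crcp and Gusb in the RefSeq annotation. It stands outside the rule that chose the genes, was added after its values were seen and enters none of the counts of the 8 genes. ARLY_RAT ranged from 161 to 236 RPKM in control livers, with a median of 193, and from 176 to 332 in EtOH livers, with a median of 257. EtOH animal 1 was again the lowest of its group, and the ranges overlapped. ARLY_RAT rose from 192 ± 28.0 to 256 ± 53.9 RPKM, with a log2 fold change of 0.52 (SE 0.12, limma adjusted p = 0.0462). It was not called in 10 of the 12 fits that left out 1 liver, where the adjusted p reached 0.0954.

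Arg1, which releases urea, did not differ beyond the spread between animals. It ranged from 524 to 751 RPKM in control livers, with a median of 690.3, and from 517 to 835 in EtOH livers, with a median of 577. EtOH animal 5 stood alone at 835, above all controls, and the other EtOH livers lay between 517 and 604. The means were 656 ± 89.8 and 609 ± 115 RPKM, and the log2 fold change of Arg1 (chromosome 1, 20998894 to 21011266) was -0.11 (95% interval -0.33 to 0.10, adjusted p = 0.649).

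Of the enzymes around the cycle, Oat differed most. Oat (chromosome 1, 192026625 to 192046404) ranged from 175 to 329.7 RPKM in control livers, with a median of 223, and from 367 to 488 in EtOH livers, with a median of 411. The groups did not overlap, and control animal 1, at 329.7, stood above the other controls, which reached 242. Oat rose from 228 ± 56.7 to 416 ± 47.7 RPKM, a ratio of means of 1.82 in the values as deposited. Its log2 fold change was 1.01 after quantile normalization (SE 0.17, limma adjusted p = 0.0127) and 0.89 without normalization. The paper also lists Oat as up-regulated by its own RNA-Seq test, with a fold change smaller than 1.82.

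Gls2, which frees ammonia from glutamine (chromosome 7, 1479404 to 1495286), ranged from 62.9 to 81.2 RPKM in control livers, with a median of 74.4, and from 68.1 to 124 in EtOH livers, with a median of 96.2. In the EtOH group, 5 livers lay above all controls, and EtOH animal 1, at 68.1, lay among them. Gls2 rose from 73.9 ± 6.05 to 98.7 ± 20.0 RPKM, with a log2 fold change of 0.55 (SE 0.12, limma adjusted p = 0.0309). Its call was lost without normalization (adjusted p = 0.103) and with scaling by the median (adjusted p = 0.0636).

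Glud1, which frees ammonia from glutamate, was at nearly the same level in both groups. It ranged from 387 to 476 RPKM in control livers and from 406 to 492 in EtOH livers, with medians of 457 and 453. The means were 445 ± 32.6 and 448 ± 30.7 RPKM, and the log2 fold change was 0.11 (95% interval -0.01 to 0.23, adjusted p = 0.350).

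**Figure D2:**
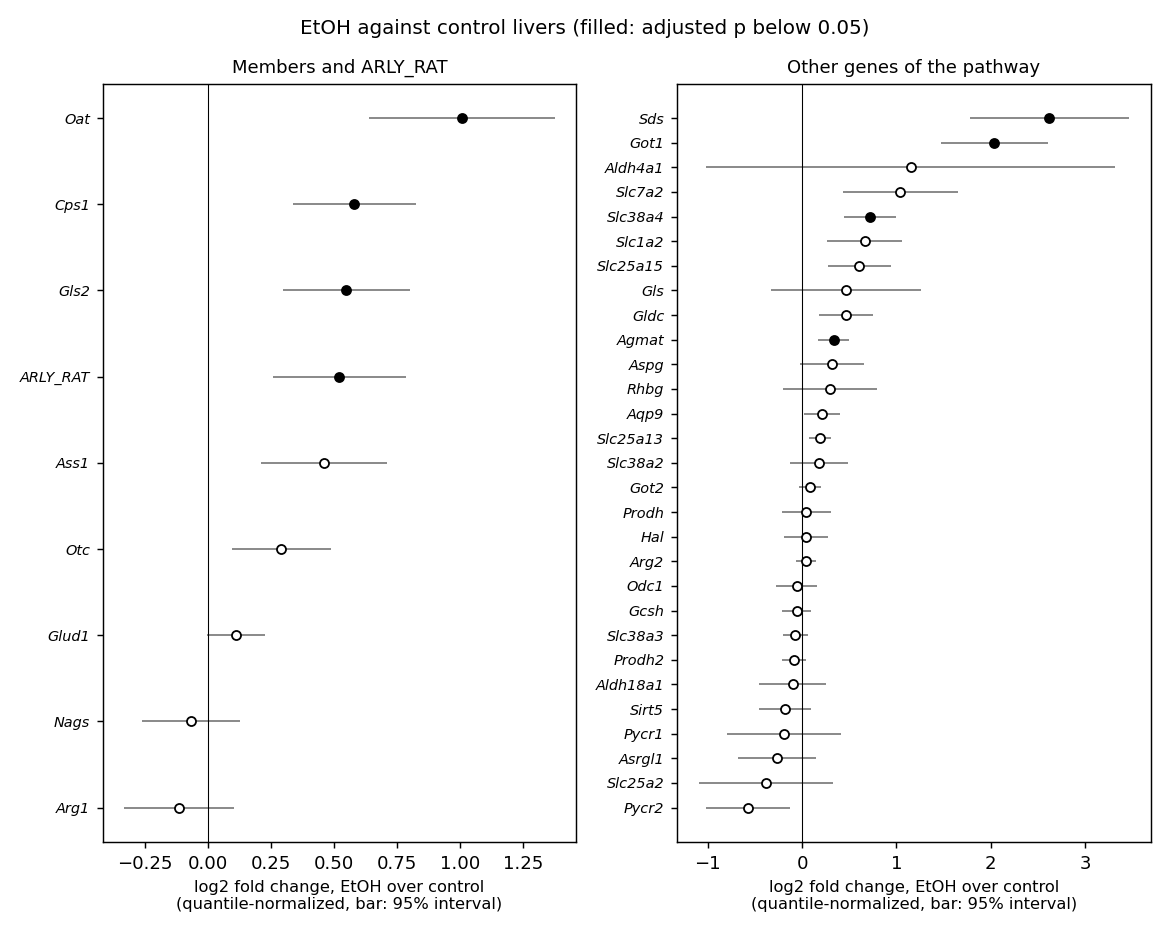
Log2 fold change of EtOH over control livers (horizontal axes) with its 95% interval from limma, for the 8 genes and ARLY_RAT (left) and for 29 other genes of ammonia, ornithine and amino acid handling (right). Filled points had an adjusted p below 0.05. They are Oat (1.01), Cps1 (0.58), Gls2 (0.55) and ARLY_RAT (0.52) on the left and Sds (2.62), Got1 (2.04), Slc38a4 (0.72) and Agmat (0.34) on the right.

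The differences changed the order of the levels. In control livers the mean RPKM fell in the order Ass1, Arg1, Cps1, Glud1, Otc, Oat, ARLY_RAT, Gls2 and Nags. In EtOH livers Cps1 stood above Arg1 and Oat above Otc. Arg1 exceeded Cps1 in 4 of 6 control livers, so the 2 genes were not separated there, while Cps1 exceeded Arg1 in 6 of 6 EtOH livers, although their ranges over animals overlapped. Otc exceeded Oat in 5 of 6 control livers, and Oat exceeded Otc in 6 of 6 EtOH livers. In control livers, Ass1 from Arg1, Cps1 from Glud1, Glud1 from Otc, ARLY_RAT from Gls2 and Gls2 from Nags were separated without overlap, as were Ass1 from Cps1, Arg1 from Glud1, ARLY_RAT from Gls2 and Gls2 from Nags in EtOH livers. The summed RPKM of the 8 genes was 3571 to 4054 in control livers and 3917 to 5826 in EtOH livers, with overlap.

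Ratios formed within a liver do not depend on how that library was scaled. They are given as a description, with no test. The ratio of Oat, which uses ornithine, to Arg1, which makes it, was 0.361 ± 0.134 in control livers and 0.691 ± 0.0581 in EtOH livers. The groups were apart, but by little, at 0.581 in the highest control and 0.584 in the lowest EtOH liver. The ratio of Oat to Otc, which compete for ornithine, went from 0.761 ± 0.160 to 1.23 ± 0.150, without overlap. The ratio of Cps1 to Nags went from 21.9 ± 4.29 to 36.9 ± 6.93, and that of Cps1 to Otc from 1.96 ± 0.112 to 2.52 ± 0.321, both without overlap. Ass1 over Arg1 went from 2.31 ± 0.335 to 3.30 ± 0.376, without overlap, whereas Ass1 over ARLY_RAT, consecutive steps, was 7.86 ± 0.801 in control livers and 7.88 ± 0.573 in EtOH livers. Cps1 over Arg1 (0.913 ± 0.191 and 1.41 ± 0.173) and Gls2 over Glud1 (0.166 ± 0.00932 and 0.221 ± 0.0438) overlapped.

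**Figure D3:**
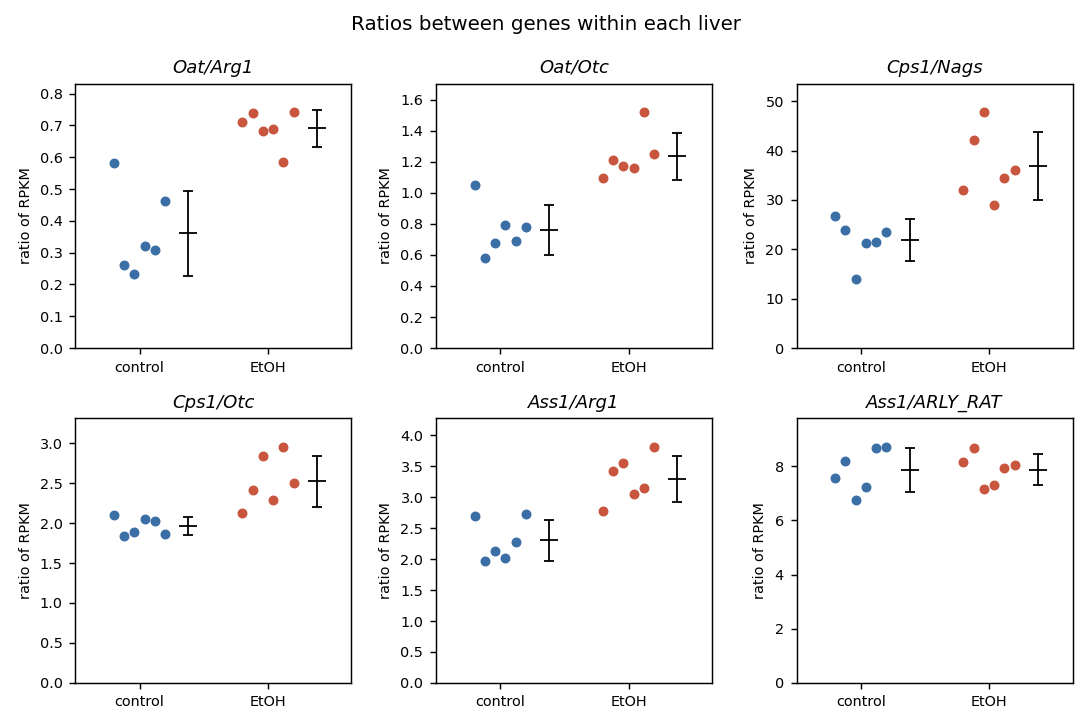
Ratio of the RPKM of 2 genes within each liver (vertical axes, from 0) for 6 control (blue) and 6 EtOH (red) livers, with the mean and SD of each group in black. The EtOH livers lie above all controls in 5 panels, and those for Ass1 over ARLY_RAT lie within the control range (7.14 to 8.69 against 6.76 to 8.72).

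The levels of several genes followed each other across animals. The correlations are descriptions, and their points share the library and its scaling. Of 11085 transcripts averaging an RPKM of 1 or more, the one most like Oat over the 12 livers was Cps1, by the Pearson correlation of quantile-normalized log2 values (r = 0.95, Spearman's rho 0.93). Because the groups were apart for both genes, the pooled value also holds the difference between groups. Within the 6 control livers r was 0.89, within the 6 EtOH livers 0.65, and for deviations from the group means 0.84. Without the 2 livers farthest from the median of Cps1 it was 0.92. Ass1 and ARLY_RAT had r = 0.93 over the 12 livers, 0.73 within control livers and 0.88 within EtOH livers. Cps1 and Otc had r = 0.93 within control livers and 0.26 within EtOH livers, a difference that was not tested.

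The other transcripts most like Oat were Rxra (r = 0.95), a partner of nuclear receptors, and D4A3R6_RAT (r = 0.94). Those most like Cps1 were Rxra (r = 0.96), Tsc1 (r = 0.96), an inhibitor of mTOR signalling, and Egfr (r = 0.96), the receptor of epidermal growth factor. Those most like Gls2 were Gnmt (r = 0.93), which methylates glycine, Xpnpep2 (r = 0.93), an aminopeptidase, and Sds (r = 0.92), serine dehydratase. As deviations from the group means these r lay between 0.75 and 0.91. Among the EtOH livers, animal 5 was the highest for 6 of the 8 genes and animal 1 the lowest for 5 of the 8.

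The wider pathway was examined with 33 further genes of ammonia, ornithine, proline, glutamine and amino acid handling, of which 29 were tested. Of these, 4 rose and 0 fell by limma, and 25 were not called. Over all transcripts the shares were 1.13% higher and 1.29% lower. The mean levels of the 29 ran from 0.0087 to 359 RPKM, and the 4 called genes all averaged at least 20. In that range 5.06% of transcripts were called higher. At an unadjusted p below 0.05, 10 of the 29 were higher and 1 lower, where 8.07% and 7.42% of all transcripts were. Of transcripts at an RPKM of 20 or more, 19.8% were higher. Limma voom called 4 of the 29 higher and 0 lower. Sds, which deaminates serine to pyruvate and ammonia, ranged from 3.41 to 13.5 RPKM in control livers and from 15.0 to 77.8 in EtOH livers, with a log2 fold change of 2.62 (SE 0.39, adjusted p = 0.00565). Got1, the cytosolic aspartate aminotransferase, which exchanges amino groups between glutamate and aspartate, the second nitrogen donor of the cycle, rose from 43.8 ± 7.95 to 176 ± 88.5 RPKM, with a log2 fold change of 2.04 (SE 0.26, adjusted p = 0.00260). Slc38a4, a neutral amino acid transporter, rose from 166 ± 16.5 to 255 ± 55.1 RPKM (adjusted p = 0.0158). These 3 genes did not overlap between groups. Agmat, which hydrolyses agmatine, rose from 53.3 ± 4.70 to 60.8 ± 6.75 RPKM, with overlap (adjusted p = 0.0393).

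Slc25a15, the mitochondrial ornithine carrier that the cycle requires, and Slc7a2, a transporter of arginine, ornithine and lysine, were chosen for mention after their values were seen, since they had no overlap between groups but were not called. Slc25a15 ranged from 68.7 to 82.9 RPKM in control livers and from 85.2 to 176 in EtOH livers (adjusted p = 0.0601). Slc7a2 ranged from 26.6 to 101 and from 108 to 149 RPKM (adjusted p = 0.0772). The remaining genes included Slc25a13, the aspartate carrier (68.7 ± 2.15 and 70.6 ± 6.97 RPKM, adjusted p = 0.0906), Slc38a3, a glutamine transporter (381 ± 44.6 and 337 ± 29.8 RPKM, adjusted p = 0.649), and Hal, which deaminates histidine (164 ± 15.6 and 154 ± 28.3 RPKM, adjusted p = 0.881).

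Transcripts were examined for 10 proteins known to act on genes of the cycle or on Cps1. By their most abundant transcripts 1 was called higher and 0 lower, where 1.13% and 1.29% of all transcripts were. At an unadjusted p below 0.05, 1 was higher and 2 lower, against 8.07% and 7.42% of all transcripts. Limma voom called 1 higher and 0 lower. Nr3c1, the glucocorticoid receptor, rose from 18.8 ± 2.20 to 25.2 ± 3.13 RPKM, with a log2 fold change of 0.56 (SE 0.10, limma adjusted p = 0.0161), and 5 of 6 EtOH livers lay above all controls. Cebpa, a liver transcription factor, was at 34.5 ± 9.18 RPKM in control livers and 21.7 ± 7.64 in EtOH livers (adjusted p = 0.219). Hnf4a, another, was at 133 ± 16.7 and 120.0 ± 8.99 RPKM (adjusted p = 0.985). A less abundant transcript of Creb1 was called higher, but on 2 reads in control livers and 26 in EtOH livers (limma adjusted p = 0.0334).

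Urea cycle enzymes and Gls2 are concentrated in periportal hepatocytes, Oat in pericentral ones. Of 5 other periportal genes tested, 2 were called higher by limma, Sds and Pck1, and 0 lower. The shares over all transcripts were 1.13% and 1.29%, and 5.06% were called higher at a mean RPKM of at least 20. Of the 5, 3 were higher and 0 lower at an unadjusted p below 0.05, against 8.07% and 7.42% of all transcripts. Among transcripts at an RPKM of 20 or more, as these 5 were, 19.8% were higher. Besides Sds and Pck1, this was Hsd17b13, by its most abundant transcript (37.2 ± 5.54 to 61.9 ± 28.7 RPKM). Its other transcripts went the other way, from 51.6 to 43.1 and from 50.7 to 33.4 RPKM, and were not called. The log2 fold change was above 0 for 4 of the 5 and below 0 for 1. Limma voom called 2 of the 5 higher and 0 lower. Sds and Hal are also among the 29 pathway genes above, so the Sds call is counted in both lists. The paper also reports Sds and Pck1 as up-regulated, by RNA-Seq and by qRT-PCR. Pck1, which opens gluconeogenesis, rose from 265 ± 49.9 to 796 ± 184 RPKM, with a log2 fold change of 1.62 (SE 0.16, adjusted p = 0.000506). Of 6 pericentral genes, 1 was called, Lgr5, which was lower on 8 reads in control livers and 3 in EtOH livers, too few to give a level. The log2 fold change was above 0 for 4 of the 6 and below 0 for 2. An unadjusted p below 0.05 was reached by 2 higher genes and 1 lower, where 8.07% and 7.42% of all transcripts reached it. Limma voom called 0 of the 6. Slc1a2 and Rhbg of this list are also among the 29 pathway genes. Cyp2e1, the ethanol-inducible cytochrome P450 of pericentral cells, was at 2187 ± 214 and 2731 ± 208 RPKM and was not called (adjusted p = 0.0718). Of its 6 EtOH livers, 5 lay above all controls. The paper reports Cyp2e1 as significantly higher in EtOH animals by qRT-PCR, though not by its RNA-Seq test. Of 4 Kupffer cell markers, 2 were called higher, where 1.13% of all transcripts were. They were Clec4f, from 66.4 ± 10.7 to 82.4 ± 6.06 RPKM (adjusted p = 0.0246), and Cd163, from 6.19 ± 1.17 to 9.38 ± 1.93 (adjusted p = 0.0427). The log2 fold change was above 0 for all 4. An unadjusted p below 0.05 was reached by 3, and limma voom called 2 higher. The summed level of the 4 was 93.9 to 147 RPKM in control livers and 126 to 154 in EtOH livers, and none was at 0. The part of these markers in the differences of Oat, Cps1 and Gls2 was not tested. By limma, 0 of 4 stellate, 0 of 2 endothelial, 0 of 3 cholangiocyte and 0 of 1 red blood cell markers were called, and limma voom also called 0 in each list. The counts at an unadjusted p below 0.05 were 2, 1, 0 and 0, all higher, where 8.07% of all transcripts were higher. The log2 fold change was above 0 for 4 of 4 stellate, 2 of 2 endothelial, 1 of 3 cholangiocyte and 1 of 1 red blood cell markers. The genes with the smallest p were Reln (adjusted p = 0.186), Lyve1 (adjusted p = 0.157), Krt19 (adjusted p = 0.833) and Hbb (adjusted p = 0.445).

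**Figure D4:**
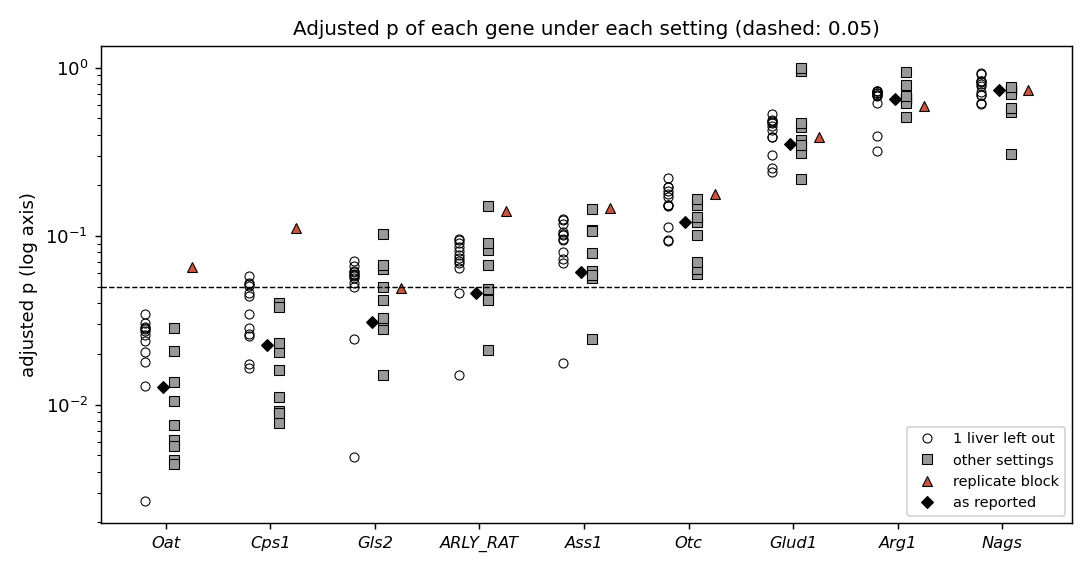
Benjamini-Hochberg adjusted p (vertical log axis) of each of the 8 genes and ARLY_RAT as reported, with 1 liver left out, with the animal numbers as a replicate block and under the other settings, with 0.05 as a dashed line. Oat lies below the line except with the block (0.0659), Cps1, Gls2, ARLY_RAT and Ass1 spread across it, and Otc, Glud1, Arg1 and Nags lie above it.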

How the data were processed

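Poly-A RNA of 12 rat livers, 1 library per animal, was sequenced as 101-nucleotide paired-end reads, and per the paper's methods the authors mapped and counted them with CLCbio Genomics Workbench. The deposited table gives RPKM per transcript, made by the authors, with no quantile step. It also holds their fold change, test statistic, p and FDR columns, which were not used. Groups came from the sample titles. Whole reads were recovered from the RPKM values for 21718 of 21718 transcripts, within 0.01 of a read (100% whole), and served for depth and for limma voom. Intervals cover the spread between animals. The study tested quantile-normalized values with a pooled error. Here limma 3.58.1 (R 4.3.3), with trend, was fitted to quantile-normalized log2(RPKM + 0.5) of 6 EtOH and 6 control livers without covariates, which understates changes of low genes, and two-sided p-values were Benjamini-Hochberg adjusted over all transcripts. The code was tested on simulated data. Genes named were all members, from each other list every called gene and otherwise the one with the smallest p, and the 3 transcripts most correlated with each called member. Slc25a15, Slc7a2, Slc25a13, Slc38a3, Hal, Cebpa, Hnf4a, Creb1, Cyp2e1, Hsd17b13, Slc1a2 and Rhbg were named beyond this rule, after their values were seen. The members and lists were chosen with earlier results of these data known. Of the listed symbols, 20 had no transcript under that name. Alternatives were other pseudocounts, scalings, filters and error models, a replicate block and leaving out each liver. Voom was chosen after the data were seen.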

Additional observations from a re-analysis of the deposited data

Results flagged for a closer look

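Arg1 in EtOH animal 5, at 835 RPKM, stood apart from the other 5 EtOH livers, which lay between 517 and 604. Its gap to the nearest of them was 0.726 of the range of the group and exceeded Dixon's 95% critical value for 6 samples. This was 1 of 20 groups so examined, and chance flags about 1 in 20.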

How the results depend on the processing

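No gene of the 8 changed direction under any of the 22 other settings. The log2 fold change of Glud1, 0.11 as reported, was close to none at 0.0105 without normalization and 2.46e-05 by limma voom. Of the 8 genes, 3 were called higher as reported, 1 (Gls2) with the animal numbers as a replicate block and 1 to 4 with 1 liver left out. Over all transcripts 526 were called, against 860 where a mean RPKM of at least 1 was required, 322 with square roots and a pooled error, 113 with the replicate block and 212 to 656 with 1 liver left out. Of the other pathway genes, 4 were called, against 8 with that filter, 1 with the block and 3 to 5 with 1 liver left out. The cause was not tested, except that the filter adjusts over fewer transcripts. The numbers did not pair the animals: same-numbered livers had correlations of deviations from the group means of -0.067 to 0.032, and 1 of 12 livers correlated best with its own number. With the block the adjusted p was 0.0659 for Oat, 0.112 for Cps1, 0.0493 for Gls2 and 0.141 for ARLY_RAT. Scaling moved the split of calls, from 245 higher and 281 lower to 126 and 648 without normalization and to 194 and 337 with scaling by the median. Without normalization the log2 fold changes were 0.89 for Oat, 0.53 for Cps1, 0.39 for Gls2, 0.18 for Otc and -0.22 for Nags. That of Arg1 stayed at -0.11. The call of Gls2 was also lost with square roots and a pooled error (adjusted p = 0.0672). Over the leave-one-out fits the adjusted p reached 0.0345 for Oat, 0.0581 for Cps1 and 0.0716 for Gls2. Nags rested on the fewest reads of the 8 genes, 152 in the shallowest library.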
